A study of Mus musculus with 2 samples.

Results

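The 10 genes described here carry iron through the intestinal epithelium: Slc11a2, Cybrd1, Slc40a1, Heph, Fth1, Ftl1, Tfrc, Hmox1, Aco1 and Ireb2. They were taken by symbol from the table of read counts, where each of the 10 had a row among 19294 genes. The libraries came from mouse intestinal organoids (mIOs), epithelial structures grown in Matrigel from jejunal crypts in medium with EGF, Noggin and R-spondin. Both cultures had the genotype Lgr5-EGFP-IRES-creERT2, in which the Lgr5 locus drives EGFP and a tamoxifen-dependent Cre recombinase. One culture was the control, and the other was treated with dextran sulfate sodium (DSS), a sulfated glucose polymer that damages the epithelial layer. The sample titles give day 4 for both and do not say from when the days are counted. The number of animals, their age and the DSS concentration used for sequencing are not given in the sources used here.

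Dietary iron reaches the duodenum and jejunum mostly as ferric iron. At the brush border, the reductase CYBRD1 (DCYTB) converts it to ferrous iron, which the transporter SLC11A2 (DMT1) carries into the enterocyte together with protons. Iron that is not needed at once is stored in ferritin, a hollow shell of heavy (FTH1) and light (FTL1) chains, and is lost when the cell is shed. Iron that passes on to the body leaves through ferroportin (SLC40A1) on the basolateral side and is oxidized by hephaestin (HEPH). The transferrin receptor (TFRC) takes up iron-loaded transferrin from the blood side, mainly in proliferating cells, and heme oxygenase (HMOX1) frees iron from heme. The iron regulatory proteins ACO1 (IRP1) and IREB2 (IRP2) bind hairpins in mRNAs, the iron responsive elements, when iron is low. A hairpin near the 5′ end of an mRNA then holds back its translation, and hairpins behind the coding sequence protect the mRNA from decay.

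The hairpins are shown because they separate the members whose mRNA level the iron regulatory proteins are known to set (Tfrc, and the Slc11a2 mRNA with the element) from those controlled in translation, which counts of mRNA do not measure. They were read from GENCODE vM21 transcripts (GRCm38) on the transcript strand, with the loop in capitals: 6 bases of the form CAGTGN with A, C or T as the last, after 5 paired bases of the upper stem, and with a bulged C and at least 4 of 5 paired bases below it. G-T pairs and 1 unpaired base on the 3′ side of the upper stem were allowed. This pattern was present in a UTR of 31 of 21877 protein-coding genes (0.142%), and 5 of the 10 members held 8 elements between them. The 5′ UTR elements lie in exon 1 of Fth1 (chr19:9982733-9982759, plus strand), Ftl1 (chr7:45459780-45459806, minus strand) and Slc40a1 (chr1:45925466-45925492, minus strand).
Fth1: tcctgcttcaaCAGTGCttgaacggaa
Ftl1: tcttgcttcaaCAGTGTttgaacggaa
Slc40a1: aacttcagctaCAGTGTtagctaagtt

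The elements of both ferritin genes had 25 of 27 bases in common, and each had 13 of 27 bases in common with that of Slc40a1. Behind the coding sequence, Slc11a2 held 1 element in exon 16 (chr15:100395153-100395180, minus strand), 32 bases after the stop codon. It was present in 1 of the 2 annotated Slc11a2 transcripts that match a RefSeq mRNA of the table, and gene counts do not tell these transcripts apart. Tfrc held 4 elements that match the pattern, in exon 19 on the plus strand of chromosome 16. They lie at chr16:32631220-32631246, chr16:32631599-32631625, chr16:32631664-32631690 and chr16:32631711-32631737, listed in this order.
Slc11a2: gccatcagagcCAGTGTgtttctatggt
Tfrc: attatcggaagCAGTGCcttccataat
Tfrc: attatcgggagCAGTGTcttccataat
Tfrc: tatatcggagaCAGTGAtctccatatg
Tfrc: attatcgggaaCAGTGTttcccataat

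**Figure D1:**
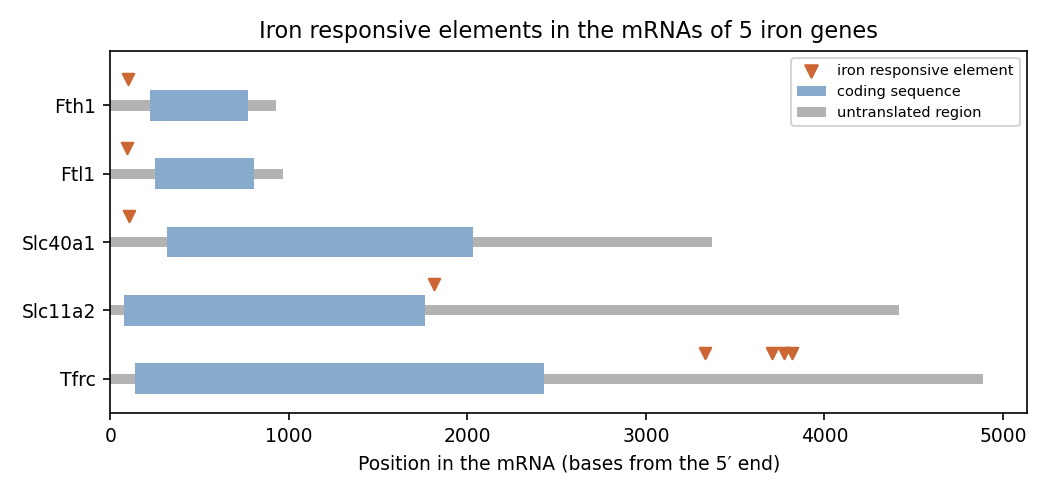
Positions of the iron responsive elements found by the pattern (triangles) in the mRNAs of 5 members. Positions are in bases from the 5′ end of 1 annotated transcript each, with the coding sequence as the wide bar. The elements of Fth1, Ftl1 and Slc40a1 stand before the coding sequence, and the 1 element of Slc11a2 and the 4 of Tfrc stand behind it.

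The element of Slc40a1 ends 202 bases before the start codon, those of Ftl1 and Fth1 end 148 and 110 bases before it, and the 4 elements of Tfrc begin 883 to 1374 bases after the stop codon. The search gave no match for Cybrd1, Heph, Hmox1, Aco1 and Ireb2. This says only that these letters and pairs are not in the UTRs of their annotated transcripts. Elements that depart from the pattern were not counted in any gene, so the 4 of Tfrc need not be all that its mRNA holds.

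Sequencing gave 65493032 gene counts for control mIOs and 59746968 for DSS-treated mIOs, and no listed gene was at 0 in either. Counts were scaled with TMM factors and are given per 1000000 scaled counts (CPM). Differences are log2 ratios of scaled counts (DSS divided by control), each with its 95% interval by the exact Clopper-Pearson method. There was 1 library per condition, so no difference has a replicate check or a test, and the intervals reflect counting error alone. Among the 17235 genes that reached 10 counts in either library, 3330 (19.3%) were at least 2-fold higher in the DSS library, a log2 ratio of 1 or more, and 3486 (20.2%) at least 2-fold lower. When libraries were scaled by their totals alone (total counts), a shift of -0.26 in the median log2 ratio of all genes, the higher genes made up 37.1% of those past a 2-fold line, against 48.9% with TMM factors. The labels give intestinal stem cells as the cell type, whereas the libraries also held enterocyte transcripts, and all 10 stem cell markers of a hand-written list were lower in the DSS library.

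Genes of iron export and luminal iron reduction were higher in the DSS library, and the transferrin receptor was lower. Among the 10 members, Cybrd1, Slc40a1 and Heph were at least 2-fold higher (3 of 10, beside 19.3% of all genes) and Tfrc at least 2-fold lower (1 of 10, beside 20.2%). Under every scaling tried, the count of members past each line was the same, and no member changed sign. The 6 others, the ferritin genes, Slc11a2, Hmox1 and both iron regulatory proteins, were higher by a log2 ratio of 0.34 to 0.81. The median of the members was 0.50, beside -0.06 for all genes. No member reached the log2 ratio of 2 that 7.87% of all genes exceeded, or the -2 that 6.54% lay below. In these bulk libraries, fewer cells of a type and less RNA per cell cannot be told apart.

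**Figure D2:**
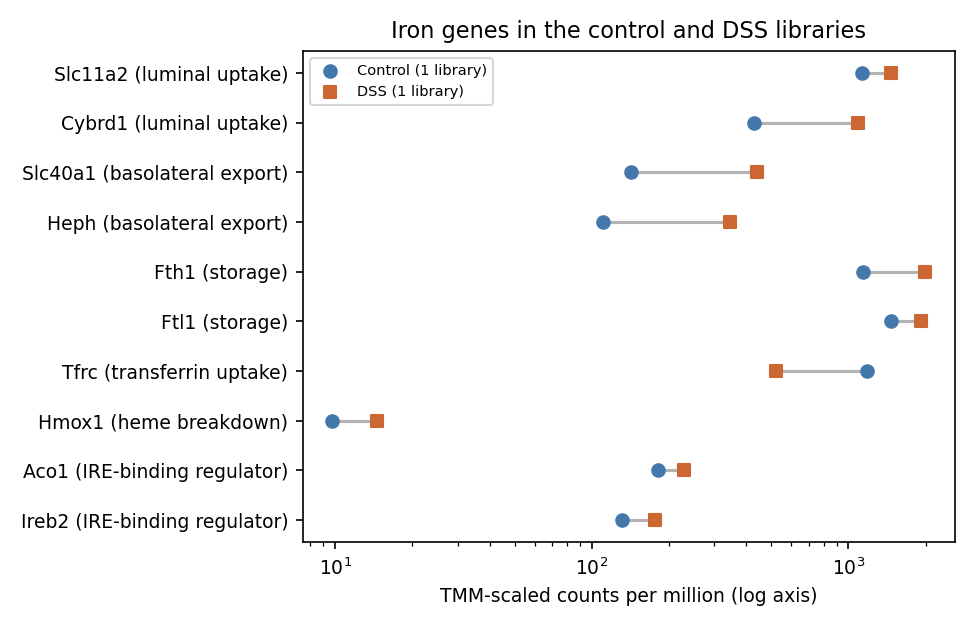
TMM-scaled CPM (log axis) of the 10 members in the control library (circles) and the DSS library (squares), with the role of each gene in brackets. The DSS value lies to the right of the control value for 9 genes and to its left for Tfrc, which went from 1176 to 522 CPM.

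The genes of luminal uptake differed in size. Slc11a2, the ferrous iron transporter (NCBI gene 18174, chromosome 15, 100387898 to 100424209, GRCm38.p6), had 81131 counts in control and 80436 in DSS-treated mIOs. This was 1134 and 1471 CPM, for a log2 ratio of 0.38 (0.36 to 0.39). For Slc11a2, as for Ftl1 and Aco1, the raw count was slightly lower and the scaled level higher, and with total counts its log2 ratio was 0.12. Cybrd1, the duodenal ferrireductase (73649, chromosome 2, 71118054 to 71142926), had 30737 counts in control and 59634 in DSS-treated mIOs. Its level of 429 CPM in control and 1091 CPM in DSS-treated mIOs gave a log2 ratio of 1.34, from 1.32 to 1.36, or 2.54-fold. Within a library, the ratio of Cybrd1 to Slc11a2 counts needs no scaling. It went from 0.379 in the control to 0.741 in the DSS library, a change of 0.97 on the log2 scale with a counting interval from 0.94 to 0.99.

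Both genes of basolateral export were about 3-fold higher. Slc40a1, the gene of ferroportin, the known iron exporter of mammalian cells (53945, chromosome 1, 45908070 to 45926532), had 10168 counts in control and 24025 in DSS-treated mIOs, or 142 and 439 CPM. The log2 ratio was 1.63, from 1.60 to 1.66, a fold of 3.09. Heph, a membrane-bound copper ferroxidase that works with ferroportin (15203, chromosome X, 96455436 to 96574485), had 7888 and 18913 counts, or 110 and 346 CPM. Its log2 ratio of 1.65, from 1.61 to 1.69, was a fold of 3.14. These were the highest ratios among the members, and 1889 of 17235 genes had a ratio above that of Heph. The ratio of Heph to Slc40a1 counts was 0.776 in control and 0.787 in DSS-treated mIOs, and the interval of its change, from -0.03 to 0.07 on the log2 scale, included 0. The difference between the libraries in one export gene could not be told from that in the other at this depth. Cp, the ferroxidase ceruloplasmin, had no row in the table and was not analysed here.

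**Figure D3:**
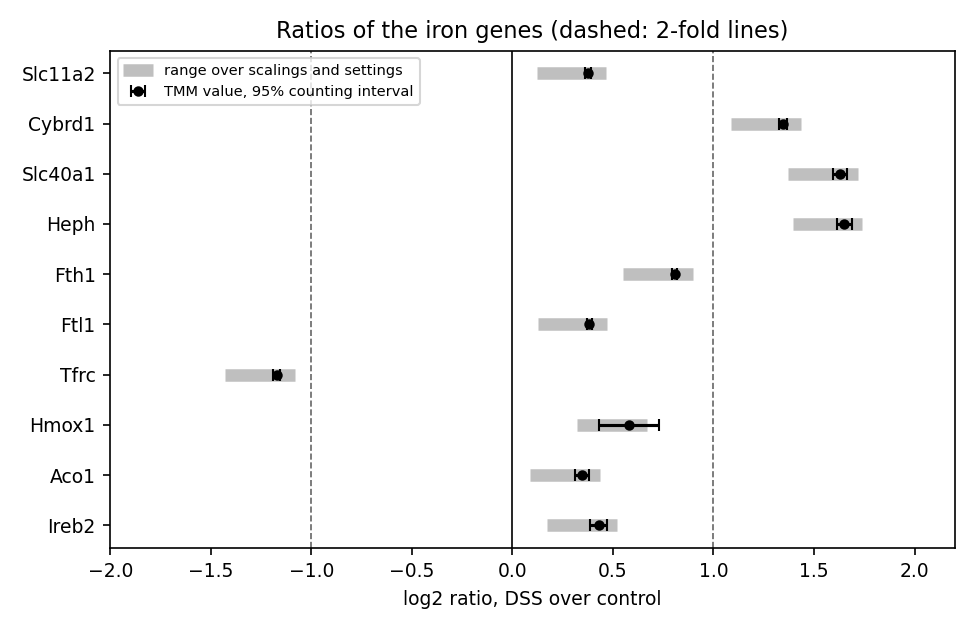
Log2 ratio of the 10 members, DSS over control (points), with the exact 95% counting interval (bars with caps) and the range over all scalings and settings tried (grey). Cybrd1, Slc40a1 and Heph lie right of the 2-fold line and Tfrc left of it over the whole grey range, and the other 6 lie between 0 and 1.

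Per kilobase, the ferritin genes had the highest levels of the members in both libraries. Fth1, which encodes the heavy chain with the ferroxidase site (14319, chromosome 19, 9980600 to 9985111), had 81445 counts in control and 108821 in DSS-treated mIOs, or 1138 and 1990 CPM. Its log2 ratio was 0.81, from 0.79 to 0.82. Ftl1, the light chain that aids the formation of the iron core (14325, chromosome 7, 45457944 to 45459886), had 105323 and 104793 counts, or 1472 and 1917 CPM, a log2 ratio of 0.38 from 0.37 to 0.39. The chains therefore differed unequally. The ratio of Fth1 to Ftl1 counts went from 0.773 to 1.04, a scaling-free change of 0.43 on the log2 scale, from 0.41 to 0.44. Ferritin genes have processed pseudogenes that can share reads with them, and how shared reads were counted is not given in the sources used here, so the separate values are uncertain. The 3 listed Ftl pseudogenes together held 8264 counts in control and 8433 in DSS-treated mIOs, which was 7.85% and 8.05% of the Ftl1 counts. With these rows added to Ftl1, the log2 ratio was 0.38, and all 5 ferritin rows together went from 195032 to 222047 counts, a log2 ratio of 0.58. No row had the symbol of an Fth1 pseudogene.

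Tfrc, the receptor for transferrin on the basolateral side and on dividing cells (22042, chromosome 16, 32608896 to 32632794), was the only member lower in the DSS library. It had 84189 counts in control and 28529 in DSS-treated mIOs, or 1176 and 522 CPM. The log2 ratio was -1.17, from -1.19 to -1.15, and the control was 2.25-fold higher. Tfrc and Slc11a2, the members with elements behind the coding sequence, differed in opposite directions. Only 1 of the 2 matched Slc11a2 transcripts has the element, and gene counts do not separate them. Control by iron regulatory proteins was not tested. The ratio of Tfrc to Slc11a2 counts went from 1.04 to 0.355, a change of -1.55 on the log2 scale, from -1.57 to -1.52. Against the export genes the distance was larger, since the ratio of Slc40a1 to Tfrc counts went from 0.121 to 0.842, a change of 2.80 from 2.76 to 2.84. Of the 3 members with an element in the 5′ UTR, Slc40a1, Fth1 and Ftl1, the log2 ratios were 1.63, 0.81 and 0.38.

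Hmox1, the inducible enzyme that opens heme to biliverdin, iron and carbon monoxide (15368, chromosome 8, 75093618 to 75100593), was the least abundant member. It had 698 counts in control and 796 in DSS-treated mIOs, or 9.75 and 14.6 CPM. The log2 ratio was 0.58, with the widest interval of the members, from 0.43 to 0.73. Aco1, an iron regulatory protein that is a cytosolic aconitase when it holds an iron-sulfur cluster (11428, chromosome 4, 40143265 to 40199009), had 12929 and 12541 counts, or 181 and 229 CPM. Its log2 ratio was 0.34, from 0.31 to 0.38. Ireb2, the other iron regulatory protein (64602, chromosome 9, 54862658 to 54912534), had 9355 and 9620 counts, or 131 and 176 CPM, and a log2 ratio of 0.43 from 0.39 to 0.47. The binding of these proteins to mRNA was not measured. With total counts, the log2 ratios were 0.09 for Aco1 and 0.17 for Ireb2, so that their size depended on the scaling.

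Levels of different genes were compared per kilobase, as CPM divided by the length of the longest annotated transcript that matches a RefSeq mRNA of the gene. In the control library, the order was Ftl1 at 1520 CPM per kilobase, Fth1 at 1225, Slc11a2 at 257, Tfrc at 241, Cybrd1 at 80.4, Aco1 at 47.1, Slc40a1 at 42.2, Heph at 23.2, Ireb2 at 22.7 and Hmox1 at 6.22. In the DSS library, it was Fth1 at 2142, Ftl1 at 1980, Slc11a2 at 333, Cybrd1 at 204, Slc40a1 at 130, Tfrc at 107, Heph at 72.9, Aco1 at 59.9, Ireb2 at 30.5 and Hmox1 at 9.28 CPM per kilobase. Tfrc went from place 4 to place 6, while Cybrd1 went from 5 to 4 and Slc40a1 from 7 to 5. Fth1 and Ftl1 changed places at the top. Neighbours in these orders have no spread to be compared with, and a level per kilobase depends on the transcript chosen.

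Most enterocyte, stem cell and cycling markers differed between the libraries by larger amounts than the members. All 12 enterocyte markers were at least 2-fold higher in the DSS library (19.3% of all genes). Their log2 ratios ran from 1.24 to 5.27, with a median of 2.79. Their summed level was 3625 CPM in control and 28510 CPM in DSS-treated mIOs. Of these markers, 11 of 12 had a higher ratio than Heph, the member with the highest. Per 1000 counts of the enterocyte markers, the control held 118 counts of Cybrd1, 39.2 of Slc40a1, 30.4 of Heph and 313 of Slc11a2. The DSS library held 38.3, 15.4, 12.1 and 51.6 counts of these genes. Each was thus lower relative to the summed markers although it was higher in CPM. Sis, Apoa1 and Apoa4 held the most of the summed 1558757 DSS counts, with 386101, 267074 and 222223. Anpep, at 1.24, was the 1 marker with a lower ratio than Cybrd1, Slc40a1 and Heph. The part of the enterocyte markers in the higher levels of Cybrd1, Slc40a1 and Heph was not tested.

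**Figure D4:**
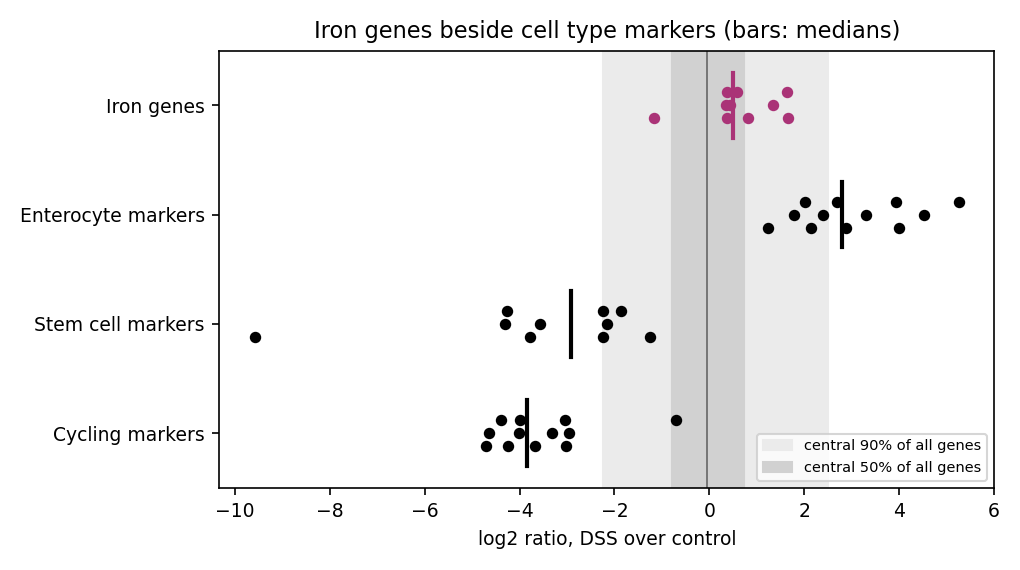
Log2 ratios, DSS over control, of the 10 members and of hand-written enterocyte, stem cell and cycling markers (1 point a gene, bars at the medians), over bands that hold the central 50% and 90% of 17235 genes. The members lie between -1.17 and 1.65, inside the wide band, whereas the enterocyte markers lie right of the members' median and all stem cell markers and cycling markers lie left of 0.

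In the other direction, 11 of 12 cycling markers and 10 of 10 stem cell markers were at least 2-fold lower (20.2% of all genes), as was Tfrc. The cycling markers had log2 ratios from -4.70 to -0.71 with a median of -3.84, and their summed level went from 1745 to 282 CPM. The stem cell markers ran from -9.59 to -1.25, with a median of -2.91. Per 1000 counts of the cycling markers, Tfrc had 674 counts in control and 1849 in DSS-treated mIOs. Tfrc was thus lower in CPM by a smaller factor (2.25-fold) than the sum of the cycling markers (6.18-fold). Pcna, at -0.71, differed by less than Tfrc and held 9370 of the 15431 cycling marker counts in the DSS library. The part of the cycling markers in the lower level of Tfrc was not tested.

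Macrophages also express Slc40a1 and Hmox1 at high levels, so their markers are given beside these genes. Of 14 macrophage markers, 6 were listed, with a summed level of 12.9 CPM in control and 43.9 CPM in DSS-treated mIOs. The defining markers Adgre1 and Ptprc had no row. Csf1r had 9 counts in control and 21 in DSS-treated mIOs, and C1qa had 3 and 32. Mrc1 supplied most of the difference in the summed level, with 96 and 1417 counts. Of the 6 listed markers, these 3 were at least 2-fold higher in the DSS library (19.3% of all genes). None was at least 2-fold lower (20.2% of all genes). Cd68 and Cd14 were at 0.73 and 0.75, and Lyz2, the only listed marker below 0, was at -0.56. The summed level of the markers, of which Mrc1 held most in the DSS library, was 3.41-fold higher there, beside 3.09-fold for Slc40a1. Per 1000 counts of these markers, Slc40a1 had 11040 counts in control and 10010 in DSS-treated mIOs, and Hmox1 had 758 and 332. Their part in the levels of Slc40a1 and Hmox1 was not tested. Of 9 erythroid markers, only Klf1 was listed, with 19 and 8 counts. Of 9 mesenchymal markers, 4 were listed, with a summed level of 6.61 CPM in control and 35.7 CPM in DSS-treated mIOs, of which Vim held most.

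A wider list of 78 further iron genes was written by role, and 64 of them had a row. Of the 64, 10 (15.6%, beside 19.3% of all genes) were at least 2-fold higher in the DSS library and 6 (9.38%, beside 20.2%) at least 2-fold lower. With total counts, 7 genes were higher and 10 lower by this measure, so that the lower genes outnumbered the higher ones, and with upper quartile factors 11 were higher and 3 lower. The median log2 ratio was -0.14, beside -0.06 for all genes, with 27 genes above 0 and 37 below. The shares past the lines lay near or under those of all genes, and the larger differences were spread over a few roles.

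Among other genes of iron uptake and reduction, 2 of 5 listed genes were at least 2-fold lower (20.2% of all genes) and none at least 2-fold higher. Steap3, the endosomal ferrireductase that reduces the iron brought in by the transferrin receptor, had 655 counts in control and 25 in DSS-treated mIOs, or 9.15 and 0.457 CPM. Its log2 ratio of -4.32, from -4.96 to -3.75, was the lowest of the wider list, in the same direction as that of Tfrc. Steap1 was at -1.74 with 441 and 101 counts, and Slc39a8, a zinc and iron importer, at -0.74. All 5 listed genes of this role were below 0, as were 8963 of 17235 genes. Among transferrin and its receptors, 2 of 5 listed genes were at least 2-fold higher (19.3% of all genes) and none at least 2-fold lower (20.2%). The median of this role was -0.13. Tfr2, the iron sensor of liver cells, was at -0.78 with 386 and 172 counts. Cubn, the gene of cubilin, which takes up vitamin B12 with intrinsic factor and in the kidney also transferrin, was at 3.66 with 85 and 820 counts. Ltf, the secreted iron-binding protein lactoferrin, was at 3.20 but rested on 14 counts in the control, with an interval from 2.38 to 4.12.

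**Figure D5:**
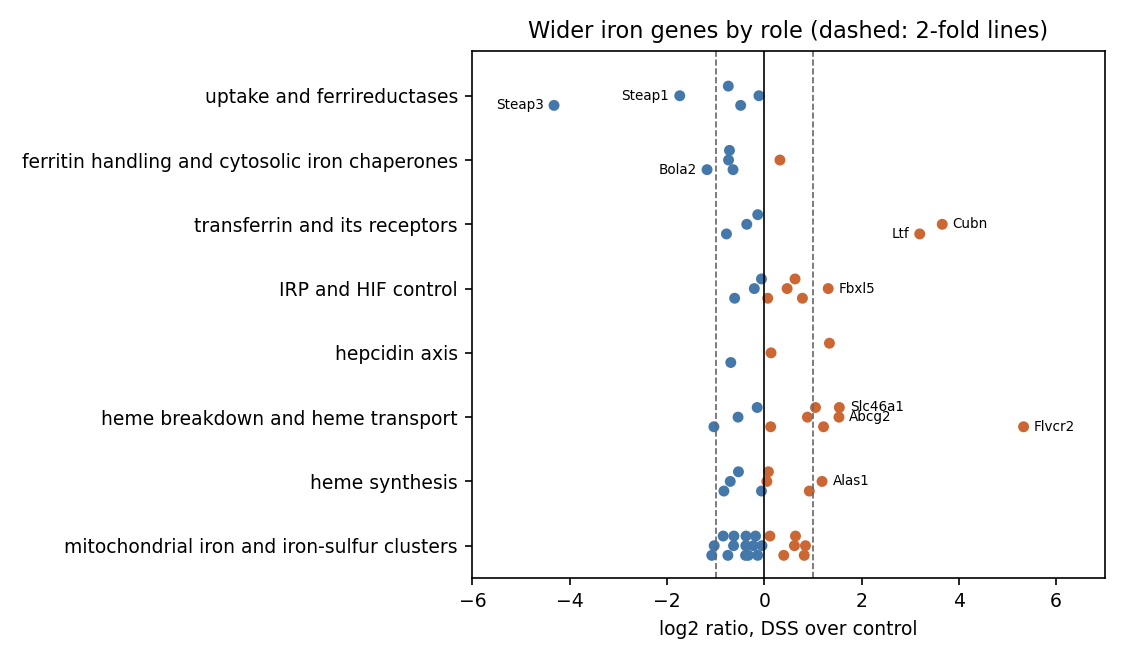
Log2 ratios, DSS over control, of the 64 listed genes of the wider iron list by role (1 point a gene, dashed lines at a 2-fold difference), with names for the larger differences among genes that had at least 50 counts in a library. The 5 genes of other uptake and reductases lie left of 0, and heme transport holds the highest ratio, 5.33 for Flvcr2.

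In the role of heme breakdown and heme transport, 5 of 10 listed genes were at least 2-fold higher (19.3% of all genes) and 1 of 10 at least 2-fold lower (20.2% of all genes). Flvcr2, a membrane carrier studied for heme and choline, had 36 counts in control and 1107 in DSS-treated mIOs, a log2 ratio of 5.33 from 4.85 to 5.85. Slc46a1, first described as a heme carrier and known as the proton-coupled folate transporter of the intestine, was at 1.54 with 1223 and 2723 counts. Abcg2, an apical efflux pump that accepts porphyrins among many other compounds, was at 1.54 with 2993 and 6628 counts. These carriers also serve substrates other than heme. The degrading enzyme Hmox2 was at -0.15, and Blvra, a biliverdin reductase, was at -1.04.

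Among the genes that control the iron regulatory and hypoxia-inducible factors, Fbxl5 was at 1.31. Fbxl5 encodes the iron-sensing subunit of the ubiquitin ligase that removes IREB2 when iron is plentiful, and it had 4526 counts in control and 8597 in DSS-treated mIOs, or 63.2 and 157 CPM. Hif1a was at 0.78. Epas1 encodes HIF-2α, which is known to raise transcription of Slc11a2, Cybrd1 and Slc40a1 in the iron-poor gut. It was at 0.63 from 0.58 to 0.69, with 67.1 and 104 CPM. Its 5′ UTR held a match to the pattern of iron responsive elements, and counts of mRNA do not measure its translation. Of 11 further targets of hypoxia-inducible factors, none was at least 2-fold higher (19.3% of all genes) and 2 (18.2%, near the 20.2% of all genes) were at least 2-fold lower, Ddit4 at -1.21 and Ndufa4l2 just past the line with 155 and 59 counts. The hepcidin genes Hamp and Hamp2 had no row, Hfe was at -0.69 and Neo1 at 0.14.

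The first enzyme of heme synthesis, Alas1, was at 1.19 with 5545 and 9647 counts, Alad, the next enzyme, at 0.93 and Urod at -0.83. The 8 listed genes of this pathway had a median of 0.00, with 4 above 0 and 4 below. Of 20 genes of mitochondrial iron and iron-sulfur clusters, 14 were below 0 and none was at least 2-fold higher. Lyrm4, which takes part in building the clusters, was at -1.08, and Slc25a37, the mitochondrial iron importer mitoferrin-1, was at 0.85. Bola2, Glrx3 and Pcbp2, which handle iron in the cytosol, were at -1.18, -0.73 and -0.72. Ncoa4, the receptor that delivers ferritin to the lysosome, was at 0.32. Its ratio lay close to that of Ftl1 and below that of Fth1.

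The transcription factor NRF2 is known to raise the ferritin genes, Hmox1 and Slc40a1. Of 13 genes of this pathway other than the members, 3 (23.1%, near the 19.3% of all genes) were at least 2-fold higher and none at least 2-fold lower (20.2% of all genes), with a median of 0.44. Gclc, the catalytic subunit of the enzyme that starts glutathione synthesis, was at 2.74 with 84.2 CPM in control and 562 CPM in DSS-treated mIOs, and Slc7a11, the cystine importer, at 2.10. Iron feeds the lipid peroxidation of ferroptosis. Of 10 genes of this process, 2 were at least 2-fold higher, a share near the 19.3% of all genes, and 3 at least 2-fold lower, beside 20.2% of all genes. Gpx4, which removes lipid peroxides, was at 1.81 with 174 and 612 CPM, and Dhodh, a mitochondrial guard against lipid peroxidation, at -2.18 with 1501 and 253 counts.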

How the data were processed

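mRNA-seq was performed on 1 control and 1 DSS-treated culture from stranded poly(A) libraries. The deposited values are raw read counts per gene, made by the authors without normalization. The submitters' processing notes name HISAT2 and StringTie. Their versions, parameters and genome build are not given in the sources used here. Each of the 2 per-sample files has FPKM in its name, yet its values equal the counts of the joint table, so no FPKM values were used. TMM factors from edgeR 4.0.16 (R 4.3.3) were 1.09 for control and 0.915 for DSS. No count was 0, so the floor of 3 counts was not needed. The members and the 12 other gene lists were chosen with earlier results of these data known. Named genes are all members, the 3 largest absolute log2 ratios per role of the wider list and the 2 largest of the NRF2, hypoxia and ferroptosis lists, among genes with at least 50 counts in a library, and some genes under this rule are not reported here. Hmox2, Blvra, Ncoa4 and single cell type markers were named after their values were seen.

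Other settings were DESeq2 1.42.0 size factors, upper quartile factors, total counts, 2 counts added to each gene, the control library thinned to the DSS total, no count filter, and a minimum of 10 counts in both libraries. Setting the median of all genes to 0 was added after seeing the data. Intervals of ratios between members within a library are Wald intervals on the log scale. Gene positions are from RefSeq on GRCm38.p6, and hairpins from GENCODE vM21 transcripts on GRCm38, so no position comes from the authors' files. Ratios, intervals and counts of genes were tested on simulated data. Tables were handled with pandas 2.3.3 and numpy 2.4.6 in Python 3.11.15, intervals came from scipy 1.17.1, and plots from matplotlib 3.10.9.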

Additional observations from a re-analysis of the deposited data

How the results depend on the processing

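The 10 members kept their direction under each other scaling, the prior count and the thinned library, and with the median of all genes set to 0, which was chosen after seeing the data. Under these and both other count filters, 3 were at least 2-fold higher and 1 at least 2-fold lower. Over the settings, the log2 ratio ran from 1.09 to 1.44 for Cybrd1, from 1.37 to 1.72 for Slc40a1, from 1.39 to 1.74 for Heph, from -1.43 to -1.08 for Tfrc and from 0.55 to 0.90 for Fth1. The smallest values, with total counts, were 0.09 for Aco1, 0.12 for Slc11a2 and 0.13 for Ftl1. In the wider iron list, 10 genes were at least 2-fold higher and 6 lower with TMM factors. These counts were 7 and 10 with total counts, and 11 and 3 with upper quartile factors. With total counts, Alas1 went from 1.19 to 0.93 and Urod from -0.83 to -1.09. With upper quartile factors, Lyrm4 went from -1.08 to -0.99. Of the 23 named genes of that list, only Neo1 changed sign, at -0.12 with total counts. No paired analysis was possible because each condition has 1 library. With 1 library per condition, variation between cultures is not known. Depth limits only genes with few counts, such as Ltf and Steap3, and genes without counts in a library are not in the table.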

Other observations

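Of the 26 other genes with an iron responsive element by the same pattern, 20 had at least 10 counts in a library. Their median log2 ratio was -0.29, beside -0.06 for all genes. Ormdl3, at 1.33, was the only 1 of the 20 at least 2-fold higher in the DSS library, beside 19.3% of all genes. At least 2-fold lower were 3 of the 20, beside 20.2% of all genes: Ppp1r1b at -2.01, Raly at -1.09 and Hnrnpr at -1.06. Ormdl3 and these 3 genes were named after their values were seen. One of the 20, Ftl1-ps1, is a near copy of Ftl1 that can share its reads. Another, Epas1, has the pattern in its 5′ UTR and was at 0.63. Whether the pattern is bound in these genes is not known from these data.

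Iron uptake is highest in the proximal intestine, so regional markers are given here. The transcription factor Gata4, which marks the proximal intestine, was at -0.18 with 14308 and 9647 counts in control and DSS-treated mIOs, Onecut2 at 0.99 and Pdx1 at -0.65. Apoc3, an apolipoprotein also raised in mature enterocytes, was at 4.49. Of 6 distal markers, 3 were listed. The ileal bile acid transporter Slc10a2 was at 3.97 but held only 78 and 932 counts and Osr2 was at 0.30. The proximal markers did not move in 1 direction.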
